A study of Mus musculus with 6 samples.

Results

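The Hoxa genes are the homeobox genes of a single gene cluster on mouse chromosome 6, and their expression was followed here in DN3 thymocytes with and without forms of the transcription factor Tcf1. The members were taken by symbol: Hoxa3, Hoxa4, Hoxa5, Hoxa6, Hoxa7, Hoxa9 and Hoxa10, which are 7 of the 24015 gene symbols counted. DN3 thymocytes are immature T cells without surface CD4 or CD8 that rearrange the T cell receptor beta locus. They had been sorted as CD44-low, CD25-high cells after removal of other blood lineages, and RNA was sequenced in 6 libraries, 2 per genotype. Controls were wild-type mice, which by their label carry neither a Cre transgene nor a floxed allele. The p45-/- mice (p45 deficient) lack the long Tcf1 isoforms and keep the short ones. Tcf1 is the HMG-box factor that Tcf7 encodes. The Lck-cre+ Tcf1 fl/fl mice (Tcf1 deficient) are designed to lose all Tcf1 proteins in T-lineage cells, where the Lck promoter drives Cre. The labels do not give age, strain, sex, batch or whether replicate libraries represent different mice. All p-values therefore set differences between genotypes against the spread of libraries within genotypes, and that spread may be technical.

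Hox genes encode homeodomain transcription factors that pattern the body axis and are used again in blood formation. They bind DNA together with TALE homeodomain partners of the Meis and Pbx families. Trithorax proteins such as Kmt2a (Mll1) keep Hox genes active, and Polycomb complexes keep them silent. In blood, Hoxa genes are active in stem and progenitor cells and decline as T cells mature in the thymus. Persistent HOXA expression marks a group of human T cell leukaemias. Tcf1 binds DNA through an HMG box that recognises a CTTTG core.

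The 250 bases before the RefSeq start site are shown for Hoxa7 and Hoxa5, the members with the highest control levels. Those of Hoxa9, lower in all mutant libraries, and of Hoxa10, with a few counts in mutant libraries only, are shown too. They come from RefSeq on build GRCm38.p6 and lie on the minus strand, at chr6:52218574-52218823 for Hoxa7, chr6:52204588-52204837 for Hoxa5, chr6:52227371-52227620 for Hoxa9 and chr6:52240855-52241104 for the upstream start of Hoxa10. Capitals mark CTTTG or its complement CAAAG.
Hoxa7: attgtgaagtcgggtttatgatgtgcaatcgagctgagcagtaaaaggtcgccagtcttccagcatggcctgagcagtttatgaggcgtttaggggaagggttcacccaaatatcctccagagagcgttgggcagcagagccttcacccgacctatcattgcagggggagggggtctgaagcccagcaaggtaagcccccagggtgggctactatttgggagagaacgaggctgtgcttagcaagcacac
Hoxa5: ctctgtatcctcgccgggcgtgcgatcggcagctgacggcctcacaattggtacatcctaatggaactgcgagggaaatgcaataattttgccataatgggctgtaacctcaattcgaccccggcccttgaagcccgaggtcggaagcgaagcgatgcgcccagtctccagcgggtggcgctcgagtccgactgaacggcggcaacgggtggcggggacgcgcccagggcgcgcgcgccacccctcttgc
Hoxa9: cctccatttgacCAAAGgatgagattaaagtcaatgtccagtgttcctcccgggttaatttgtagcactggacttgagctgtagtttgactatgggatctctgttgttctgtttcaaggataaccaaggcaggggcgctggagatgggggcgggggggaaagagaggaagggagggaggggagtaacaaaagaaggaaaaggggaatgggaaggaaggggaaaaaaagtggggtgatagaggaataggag
Hoxa10: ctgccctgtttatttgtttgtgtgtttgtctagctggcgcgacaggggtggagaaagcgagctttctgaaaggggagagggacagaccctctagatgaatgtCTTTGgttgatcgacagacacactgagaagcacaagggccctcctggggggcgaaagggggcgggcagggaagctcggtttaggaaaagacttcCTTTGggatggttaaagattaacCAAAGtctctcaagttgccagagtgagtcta
In all, 6 of the 7 members had an entry, with 7 start sites between them. The entry of Hoxa4 is missing. CTTTG on either strand was present in 48.6% of 32851 promoter windows of the same length. The longer Tcf1 motif forms CTTTGAT (3.21% of windows) and CTTTGAA (4.46%), both of which contain CTTTG, and the Pbx-Hox motif TGATTNAT (2.82%) were searched on both strands and had no match in the 7 member windows. A match or its lack describes these letters only. Among the windows, Hoxa5 held 28 CpG dinucleotides, Hoxa6 held 24 and Hoxa3 held 18, against 7 at Hoxa7 and 3 at Hoxa9. The upstream start of Hoxa10 held 7, and its other start, which is not shown, held 20. The median over all promoter windows was 6, with quartiles of 2 and 16.

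Library totals ran from 19640524 to 28107031 counts, so a count of 3 corresponded to between 0.110 and 0.145 CPM (the count relative to a TMM-scaled library size). Tcf7, counted per gene and not per isoform, was at 2087 and 1809 CPM in the controls. It was at 2339 and 2413 CPM without p45 and at 979 and 976 CPM in the Tcf1-deficient pair. Counts per gene do not show how complete the loss of Tcf1 protein was in these cells. None of 12 DN3 markers was at 0, and their summed level was 7824 to 11750 CPM. Tcf1-deficient replicate 1 stood apart from its partner in markers of later thymocytes, with a sum over 7 genes of 1055 CPM against 244 CPM. Its dendritic cell markers (9 genes) summed to 123 CPM against 18.4 CPM, a difference also seen between control replicate 1 (123 CPM) and control replicate 2 (50.4 CPM). NK and innate lymphoid markers (8 genes) summed to 43.2 CPM in Tcf1-deficient replicate 1 against 11.5 CPM in its partner. Cd44 was at 41.0 CPM against 4.70 CPM in the same libraries. Hoxa results that rest on Tcf1-deficient replicate 1 are given with and without it. In bulk RNA, fewer cells of a type and less RNA per cell cannot be told apart.

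Hoxa expression in control DN3 cells was highest at Hoxa7 and Hoxa5, in the middle of the cluster. Per kilobase of transcript, Hoxa7 was at 5.02 ± 0.336 CPM per kb (mean ± SD, n = 2 for all levels here), followed by Hoxa5 at 2.16 ± 0.005 CPM per kb. Hoxa4 was next at 1.09 ± 0.011 CPM per kb. Hoxa6 (0.825 ± 0.241 CPM per kb) and Hoxa3 (0.649 ± 0.189 CPM per kb) overlapped between libraries, and no other neighbours in this order did. Hoxa9, the member best known from myeloid and T cell leukaemia, was at 0.246 ± 0.013 CPM per kb. Hoxa10 had 0 counts in both control libraries. For scale, Hoxb4, a Hox gene expressed in blood stem cells, was at 1.35 ± 0.388 CPM per kb. Lengths were those of the longest GENCODE transcript with a curated RefSeq match, and the order below Hoxa7 and Hoxa5 depends on them. Before division by length, Hoxa9 was at 0.792 CPM and Hoxa6 at 0.721 CPM, with overlapping libraries. Hoxa3 and Hoxa4 also overlapped, at 1.68 and 1.73 CPM. The RefSeq span of Hoxa3 covers Hoxa4, Hoxa5 and Hoxa6, so reads of these genes may be shared.

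**Figure D1:**
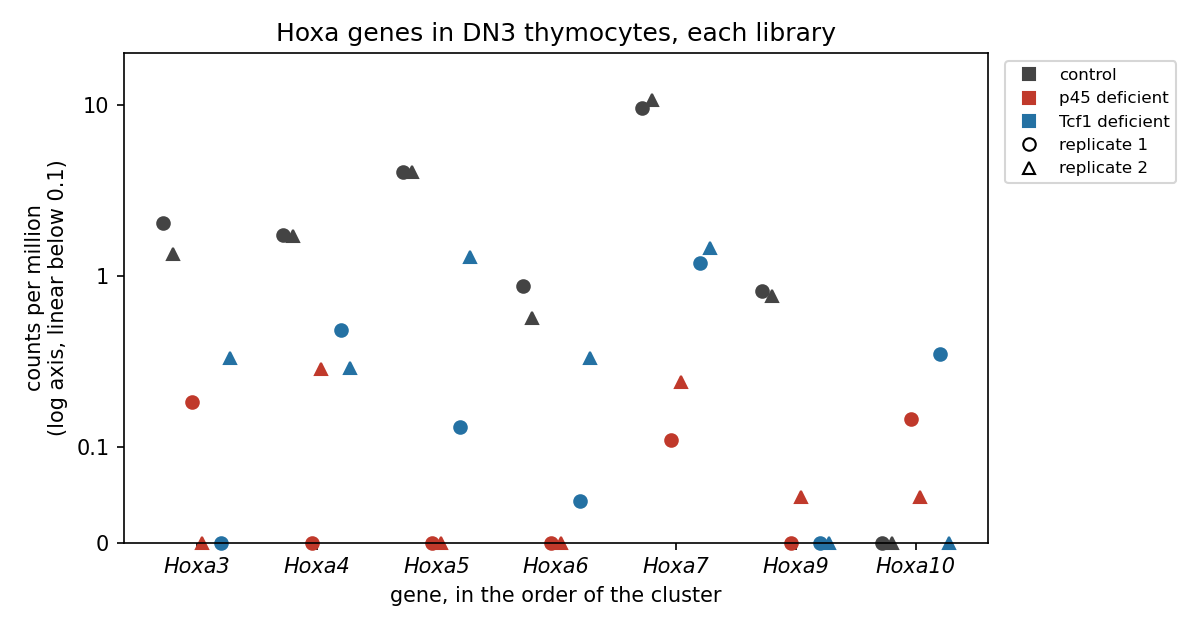
Level of each Hoxa member in each library, in CPM on an axis that is logarithmic above 0.1 and linear below it. Genes stand in cluster order, colours give the genotype, and circles and triangles are replicates 1 and 2. Control points lie above all mutant points for the 6 members from Hoxa3 to Hoxa9, and Hoxa10 has counts only in mutant libraries.

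In p45-deficient cells the Hoxa genes were near the limit of detection. The 7 members together gave 396 and 498 counts in control libraries (19.1 and 19.0 CPM) and 12 and 13 counts in p45-deficient libraries (0.441 and 0.622 CPM). With edgeR's quasi-likelihood test and Benjamini-Hochberg adjustment over 12939 genes, Hoxa5, Hoxa6, Hoxa7 and Hoxa9 fell, 4 of the 6 members tested, where 7.55% of all tested genes were called lower. The 6 tested members passed the filter on low counts through control libraries and through no p45-deficient library, so this count describes the members and is no independent support. Summed markers of dendritic, B and myeloid cells were lower in the same libraries. NK and innate lymphoid markers (8 genes) were higher, at 7.73 and 10.1 CPM in control and 13.1 and 12.1 CPM without p45. Myeloid markers (10 genes) summed to 15.1 and 12.4 CPM in control and 7.4 and 9.8 CPM without p45. No gene of either list was called, with median log2 fold changes of 0.371 (NK and innate lymphoid) and 0.117 (myeloid) among those tested. Dendritic cell markers (9 genes) summed to 123 and 50.4 CPM in control and 27.2 and 26.0 CPM without p45, and 0 of 7 tested were called (median log2 fold change -1.39). B cell markers (8 genes) summed to 36.4 and 29.5 CPM in control and 16.2 and 14.1 CPM without p45, where 2 of them, Pax5 and Ebf1, were at 0. Of 4 B cell markers tested, 1 was called lower (median -2.27). The part of such cells in the Hoxa levels was not tested.

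Hoxa7, a central-cluster gene and the highest member, had 199 and 277 counts in the control libraries, against 3 and 5 without p45. Its level fell from 10.1 ± 0.674 CPM to 0.175 ± 0.091 CPM, a 57.9-fold difference (log2 fold change -5.86, SE 0.48; edgeR adjusted p = 0.0018). The call held under each of 14 other settings, library omissions included, with adjusted p up to 0.0232. Hoxa5, a gene also needed for lung development, went from 84 and 106 counts to 0 in both p45-deficient libraries. Taking 3 counts per group as the detection floor, its level was at least 65-fold lower (edgeR adjusted p = 0.0185). Hoxa6 fell from 18 and 15 counts to 0 in both libraries, at least 11.3-fold lower (edgeR adjusted p = 0.0417). Hoxa9 fell from 17 and 20 counts to 0 and 1, a ratio of 38.0 with a counting interval of 6.40 to 1540 (exact Poisson, 95%; edgeR adjusted p = 0.0419). The control and p45-deficient libraries did not overlap for any of these genes.

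Hoxa3 and Hoxa4, at the anterior side of the set, were lower without passing the test. Hoxa3 had 42 and 35 counts in control against 5 and 0 (log2 fold change -4.00, SE 1.32; edgeR adjusted p = 0.0792). Hoxa4 had 36 and 45 counts against 0 and 6 (log2 fold change -3.65, SE 1.08; edgeR adjusted p = 0.0599). From Hoxa3 to Hoxa9, every p45-deficient library lay below both controls for the 6 tested members, an arrangement seen in 31.3% of tested genes. As these members passed the filter through the controls, nothing is read from that share. The calls of Hoxa5, Hoxa6 and Hoxa9 depended on single libraries. Without control replicate 1, control replicate 2, p45-deficient replicate 1 or p45-deficient replicate 2, edgeR adjusted p was 0.079 to 0.106 for Hoxa5, 0.146 to 0.22 for Hoxa6 and 0.163 to 0.288 for Hoxa9. Hoxa9 also missed the threshold with no filter on low counts (edgeR adjusted p = 0.0504). Without Tcf1-deficient replicate 1, which is not part of this comparison, the log2 fold change was -4.04 for Hoxa3 and -3.72 for Hoxa4.

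Hoxa10, a posterior member active in early blood progenitors, had counts at the limit of detection and in mutant libraries only. The controls had 0 counts. The p45-deficient libraries had 4 and 1, and the Tcf1-deficient libraries 8 and 0. With 3 counts put in for the control group, the ratio to control was 1.62 in p45-deficient and 2.67 in Tcf1-deficient cells. These ratios take the 5 and 8 counts of the mutant groups as exact, so they establish no rise. The Tcf1-deficient ratio rests on replicate 1, without which both groups were at 0 and no fold can be given. Hoxa10 did not pass the filter on low counts, and with no filter its edgeR adjusted p was 0.415 and 0.847.

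In Tcf1-deficient cells the members summed to 50 and 89 counts (2.20 and 3.70 CPM), between the sums of the other genotypes. No gene of the 12939 passed the edgeR test for this comparison (0% called; 1024 genes had an unadjusted p under 0.05, and DESeq2 called 145 genes), so no member was called. Hoxa7 had 27 and 35 counts, against 199 and 277 in control, and its level was 1.32 ± 0.191 CPM, 7.61-fold lower (log2 fold change -2.93, SE 0.39; edgeR adjusted p = 0.111). DESeq2 called Hoxa7 lower (adjusted p = 3.46e-08), as did edgeR with no filter on low counts (adjusted p = 0.00557). Dropping Tcf1-deficient replicate 2 also brought it past the edgeR threshold (adjusted p = 0.00674). Without Tcf1-deficient replicate 1, the log2 fold change of Hoxa7 was -2.79 (edgeR adjusted p = 0.0809).

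The other members differed more between the Tcf1-deficient libraries. Hoxa5 had 3 counts in replicate 1 and 31 in replicate 2 (log2 fold change against control -2.49, SE 0.91; edgeR adjusted p = 0.613). Without replicate 2 this value was -4.89 (edgeR adjusted p = 0.013), and without replicate 1 it was -1.65 (adjusted p = 0.55). Hoxa6 had 1 and 8 counts (log2 fold change -1.89; edgeR adjusted p = 0.685), and Hoxa3 had 0 and 8 (log2 fold change -3.27; adjusted p = 0.613). Without replicate 1 these values were -1.09 for Hoxa6 (edgeR adjusted p = 0.802) and -2.31 for Hoxa3 (adjusted p = 0.664). Replicate 2 was the higher library for these 3 genes, and replicate 1 was the library with more later-thymocyte and dendritic cell marker RNA. The part of those cells in the difference was not tested. Hoxa4 ran the other way, with 11 counts in replicate 1 and 7 in replicate 2 (log2 fold change -2.15; edgeR adjusted p = 0.631), and was at -2.55 without replicate 1 (adjusted p = 0.669).

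Hoxa9 was the member with no count left in Tcf1-deficient cells. It had 0 counts in both libraries against 17 and 20 in control, at least 12.3-fold lower (edgeR unadjusted p = 0.00306, adjusted p = 0.406). This bound uses the depth of both Tcf1-deficient libraries and would be lower without replicate 1. As in p45-deficient cells, the 6 members from Hoxa3 to Hoxa9 lay below both controls in both Tcf1-deficient libraries, where 18% of tested genes did so. Hoxa7 alone of these passed the filter in both Tcf1-deficient libraries as well as in the controls, so nothing is read from that share. These 2 comparisons share the control libraries.

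The direct comparison of the mutants tests whether they differed. By their labels only the Tcf1-deficient mice carry Cre, and their Tcf1 loss is limited to T-lineage cells. These differences cannot be told apart from the isoforms lost. Hoxa7 was higher in Tcf1-deficient than in p45-deficient cells, at 27 and 35 counts against 3 and 5, a 7.61-fold difference (log2 fold change 2.93, SE 0.48; edgeR adjusted p = 0.0159). It was the 1 member called higher, where 5.05% of tested genes were. The call was lost without p45-deficient replicate 1 or replicate 2 (edgeR adjusted p 0.0538 to 0.132), and it held without either Tcf1-deficient library. It was also lost with limma voom and with only these groups in the fit. Hoxa5 was at least 11.7-fold higher (34 counts against 0; edgeR adjusted p = 0.0647) and Hoxa6 at least 3.08-fold higher (9 counts against 0; edgeR adjusted p = 0.137), neither past the threshold. Of the 34 counts of Hoxa5, 31 were in Tcf1-deficient replicate 2. Without replicate 1 Hoxa5 was called higher (edgeR adjusted p = 0.00479), as it was with DESeq2 (adjusted p = 0.0023) and with no filter on low counts (edgeR adjusted p = 0.0435), and Hoxa6 was not (edgeR adjusted p = 0.0849). The difference was 1.51 on the log2 scale for Hoxa4 (edgeR adjusted p = 0.4) and 0.73 for Hoxa3 (adjusted p = 0.779), and Hoxa3 turned to -0.13 without p45-deficient replicate 2. It turned to -4.32 without Tcf1-deficient replicate 2, where the remaining library had 0 counts. Without Tcf1-deficient replicate 1, Hoxa4 was at 1.18 and Hoxa3 at 1.73. For Hoxa9 the mutants had 1 and 0 counts over the group, both under the floor.

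**Figure D2:**
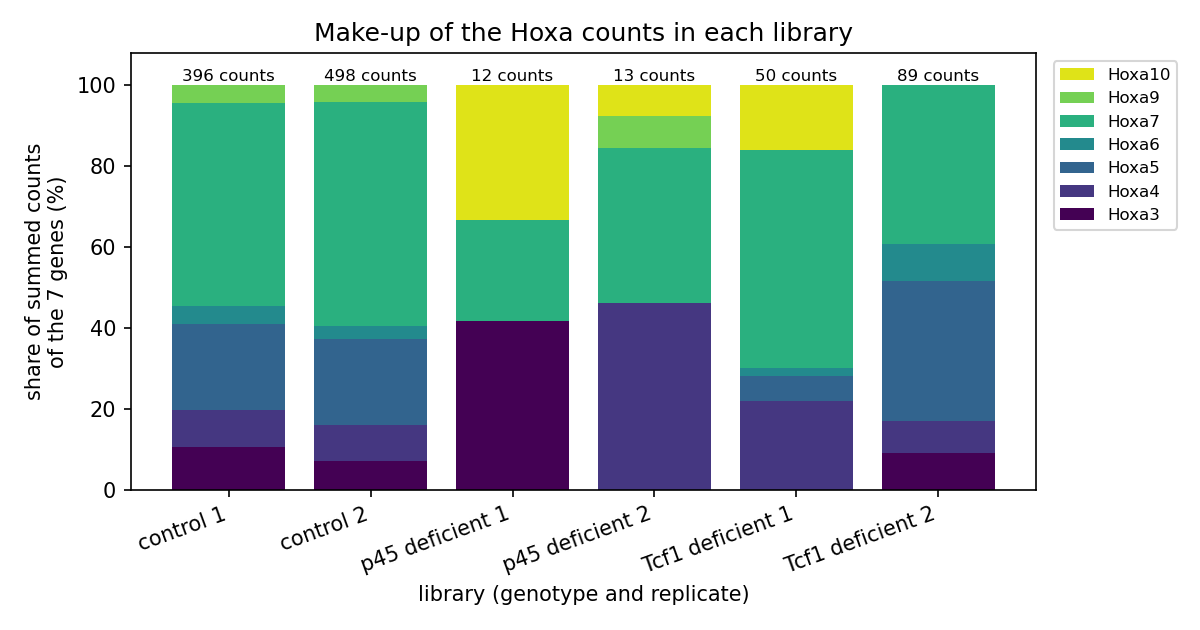
Stacked bars of the share of each Hoxa member in the summed counts of the 7 members, in percent, 1 bar per library, with that sum printed above the bar and genes stacked in cluster order. Hoxa7 is the largest share in both control libraries (50.3% and 55.6%), while the p45-deficient shares rest on 12 and 13 counts.

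From the anterior to the posterior side of the cluster, the p45-deficient levels were 16.03-fold lower for Hoxa3, 12.6-fold for Hoxa4, at least 65-fold for Hoxa5, at least 11.3-fold for Hoxa6, 57.9-fold for Hoxa7 and 38.0-fold for Hoxa9. The Tcf1-deficient levels were 9.67-fold lower for Hoxa3, 4.43-fold for Hoxa4, 5.64-fold for Hoxa5, 3.70-fold for Hoxa6, 7.61-fold for Hoxa7 and at least 12.3-fold for Hoxa9. With bounds among these folds and wide counting error, neither an order along the cluster nor differences between members were tested. Hoxa7 made up 53.2% of the members' counts in control (Clopper-Pearson 95% interval 49.9 to 56.6), 44.6% in Tcf1-deficient (36.2 to 53.3) and 32% in p45-deficient cells (14.9 to 53.5). The Tcf1-deficient libraries were at 54% (replicate 1) and 39.3% (replicate 2). Intervals and limits cover counting error only, and for a count of 0 the limit given is 3 counts of the total. Hoxa5 made up 21.3% in control and 0 of 25 counts in p45-deficient cells, which by this limit allows a share of up to 12%. In Tcf1-deficient cells it made up 24.5%, but 6% in replicate 1 and 34.8% in replicate 2. Hoxa9 made up 4.14% in control (2.93 to 5.66) and 0 of 139 counts in Tcf1-deficient cells, which allows up to 2.16%. Hoxa10 made up 0 of 894 counts in control, allowing up to 0.336%, and 5.76% in Tcf1-deficient (2.52 to 11) and 20% in p45-deficient cells (6.83 to 40.7). By library, its share was 16% and 0% in Tcf1-deficient and 33.3% and 7.69% in p45-deficient replicates 1 and 2.

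**Figure D3:**
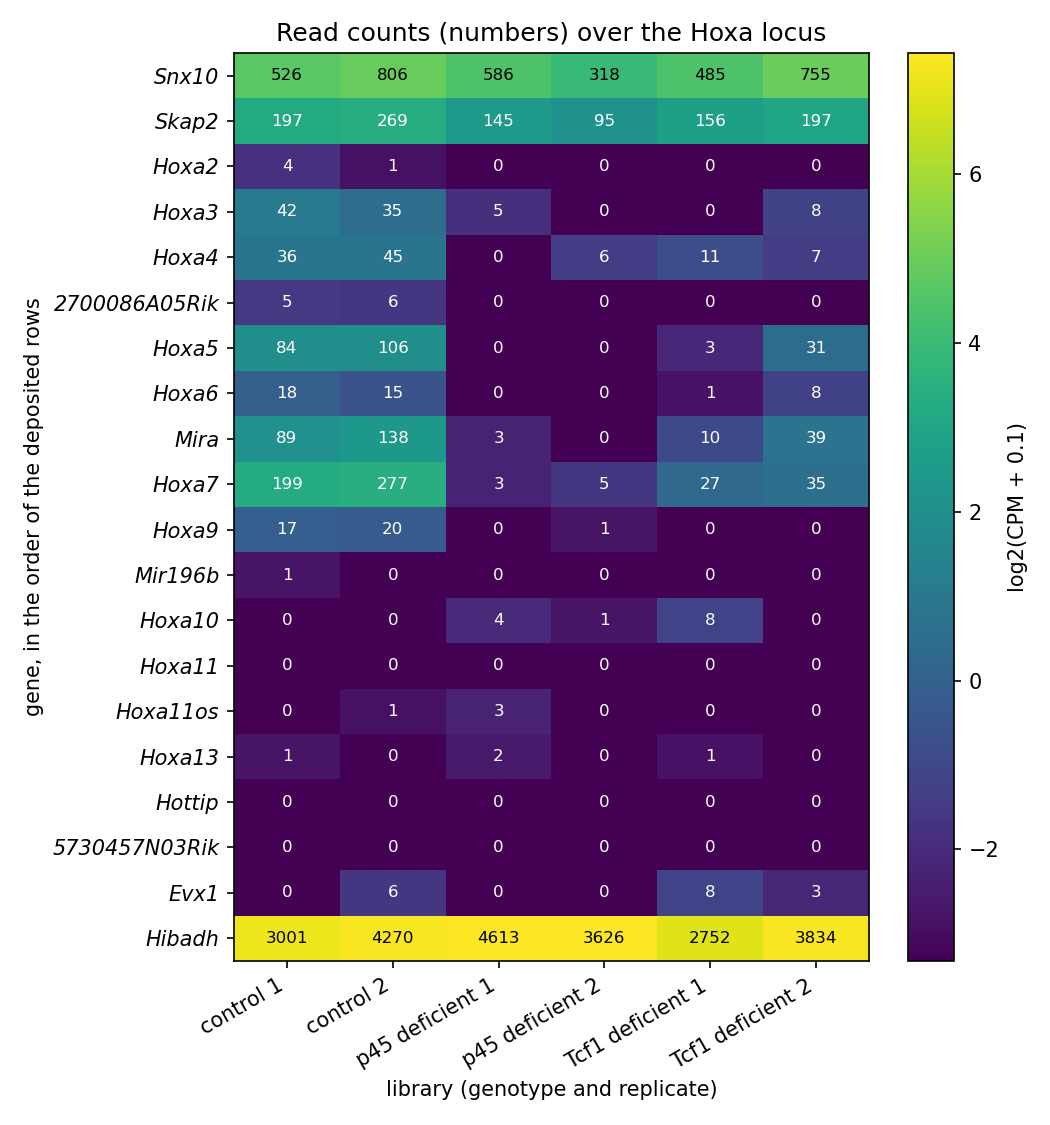
Heat map of the Hoxa locus, with transcripts in rows in the order of the deposited files, libraries in columns, read counts as numbers and log2(CPM + 0.1) as colour. The rows from Hoxa3 to Hoxa9 and Mira are brightest in the 2 control columns, while the flanking Snx10, Skap2 and Hibadh have 95 counts or more in every library.

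Among the rest of the cluster, Mira, a long noncoding RNA transcribed between Hoxa6 and Hoxa7 and described as an activator of both, had 89 and 138 counts in control libraries. The p45-deficient libraries had 3 and 0, and the Tcf1-deficient libraries 10 and 39. It was chosen after its values were seen. It fell in p45-deficient cells by a ratio of 77.6 (counting interval 26.2 to 379; edgeR adjusted p = 0.0104). That call was lost without control replicate 1, control replicate 2 or p45-deficient replicate 2 (edgeR adjusted p 0.0555 to 0.0622). In Tcf1-deficient cells its log2 fold change was -2.21 (SE 0.75; edgeR adjusted p = 0.613). It was -1.56 without replicate 1 (adjusted p = 0.615), and without replicate 2 it was called (adjusted p = 0.0317). Other cluster rows held few counts. Hoxa2 had 4 and 1 counts in control and 0 in all 4 mutant libraries, Hoxa13 had at most 2 in any library, and Hoxa11 had 0 in all 6. The antisense transcript 2700086A05Rik, which overlaps Hoxa5 and Hoxa6, had 5 and 6 counts in control and 0 in the mutants. Evx1, the homeobox gene beyond Hoxa13, had 0 and 6 counts in control, 0 in both libraries without p45 and 8 and 3 in the Tcf1-deficient pair.

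Of the 5 flanking genes tested, 1 was called lower in p45-deficient cells, where 7.55% of all tested genes were. Skap2, an adaptor protein gene on the anterior side of the cluster, fell in p45-deficient cells (log2 fold change -1.001, SE 0.25; edgeR adjusted p = 0.0386), a call lost without either control or either p45-deficient library (edgeR adjusted p 0.143 to 0.231). Snx10 was at -0.61, Hibadh at 0.16, Tax1bp1 at 0.39 and Jazf1 at 1.62 on the log2 scale, none past the test. At an unadjusted edgeR p under 0.05 were 4 of the 5, beside 4367 of all 12939 genes. With only these groups in the fit, which called more genes in all, 2 flanking genes were higher and 2 lower. Of the other Hox clusters, Hoxc and Hoxd gave 0 to 6 counts per library and Hoxb 44 to 94, of which Hoxb4 and Hoxb13 could be tested. Hoxb4 was at 4.16 and 2.75 CPM in control. It was at 1.47 and 1.48 CPM without p45 and at 1.49 and 2.66 CPM in the Tcf1-deficient pair (log2 fold change -1.22 in p45-deficient cells, SE 0.46; edgeR adjusted p = 0.113).

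Most partners and regulators of Hoxa genes did not pass the test in p45-deficient cells, where 16% of all tested genes were called (8.47% higher, 7.55% lower). Of 11 TALE cofactor genes, 8 were tested, with 1 lower and 0 higher. This was Pbx4, a Pbx-family partner (log2 fold change -0.86, SE 0.20; edgeR adjusted p = 0.0281; 0.11 to 0.185 without either control or either p45-deficient library). Meis1, the partner of Hoxa9 in leukaemia, had 1 to 6 counts in every library and was not tested. Of 21 trithorax and other activator genes in the files, 18 were tested, with a median log2 fold change of -0.12 against 0.05 over all genes. Psip1, which tethers Kmt2a complexes to chromatin, rose (0.52; edgeR adjusted p = 0.0233), and Ash1l, a histone H3 methyltransferase, fell (-0.49; edgeR adjusted p = 0.0294). Without either control or either p45-deficient library both calls were lost (edgeR adjusted p 0.0882 to 0.198 and 0.0755 to 0.228). Kmt2a itself was at -0.81 (edgeR adjusted p = 0.064). Its controls were far apart, at 882 CPM (replicate 1) and 504 CPM (replicate 2), against 400 and 394 CPM without p45.

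All 27 Polycomb genes listed were tested, and in p45-deficient cells 3 rose, 3 fell and 21 did not pass, with a median log2 fold change of -0.01. Scaling by library totals, upper quartiles or DESeq2 size factors, and leaving out the filter, each gave 1 higher and 4 lower. Pcgf2 (Mel18), a core subunit of Polycomb repressive complex 1, fell from 138 and 157 counts to 15 and 14 (log2 fold change -3.37, SE 0.40; edgeR adjusted p = 0.00434), and the call held without any single library. In Tcf1-deficient libraries Pcgf2 had 73 and 116 counts, higher than in p45-deficient cells (log2 fold change 2.72, SE 0.40; edgeR adjusted p = 0.0121; 0.0721 to 0.114 without either p45-deficient library). Ezh1, a histone H3 lysine methyltransferase of Polycomb repressive complex 2, fell (-0.96; edgeR adjusted p = 0.00677), and Phf19, an accessory subunit of that complex, rose (1.36; adjusted p = 0.0158). Kdm2b fell, and Rbbp4 and Rbbp7 rose, by less than 0.5 on the log2 scale. Ezh1 was also higher in Tcf1-deficient than in p45-deficient cells (0.99 on the log2 scale; edgeR adjusted p = 0.0098), where 10.4% of tested genes were called in either direction. No Polycomb gene was called there without either p45-deficient library. Against control, 1 or 2 Polycomb genes were lower and 0 or 1 higher in p45-deficient cells without either control or either p45-deficient library. Without either Tcf1-deficient library, 7 were lower and 5 or 6 higher. In Tcf1-deficient against control, no TALE, activator or Polycomb gene passed the edgeR test.

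**Figure D4:**
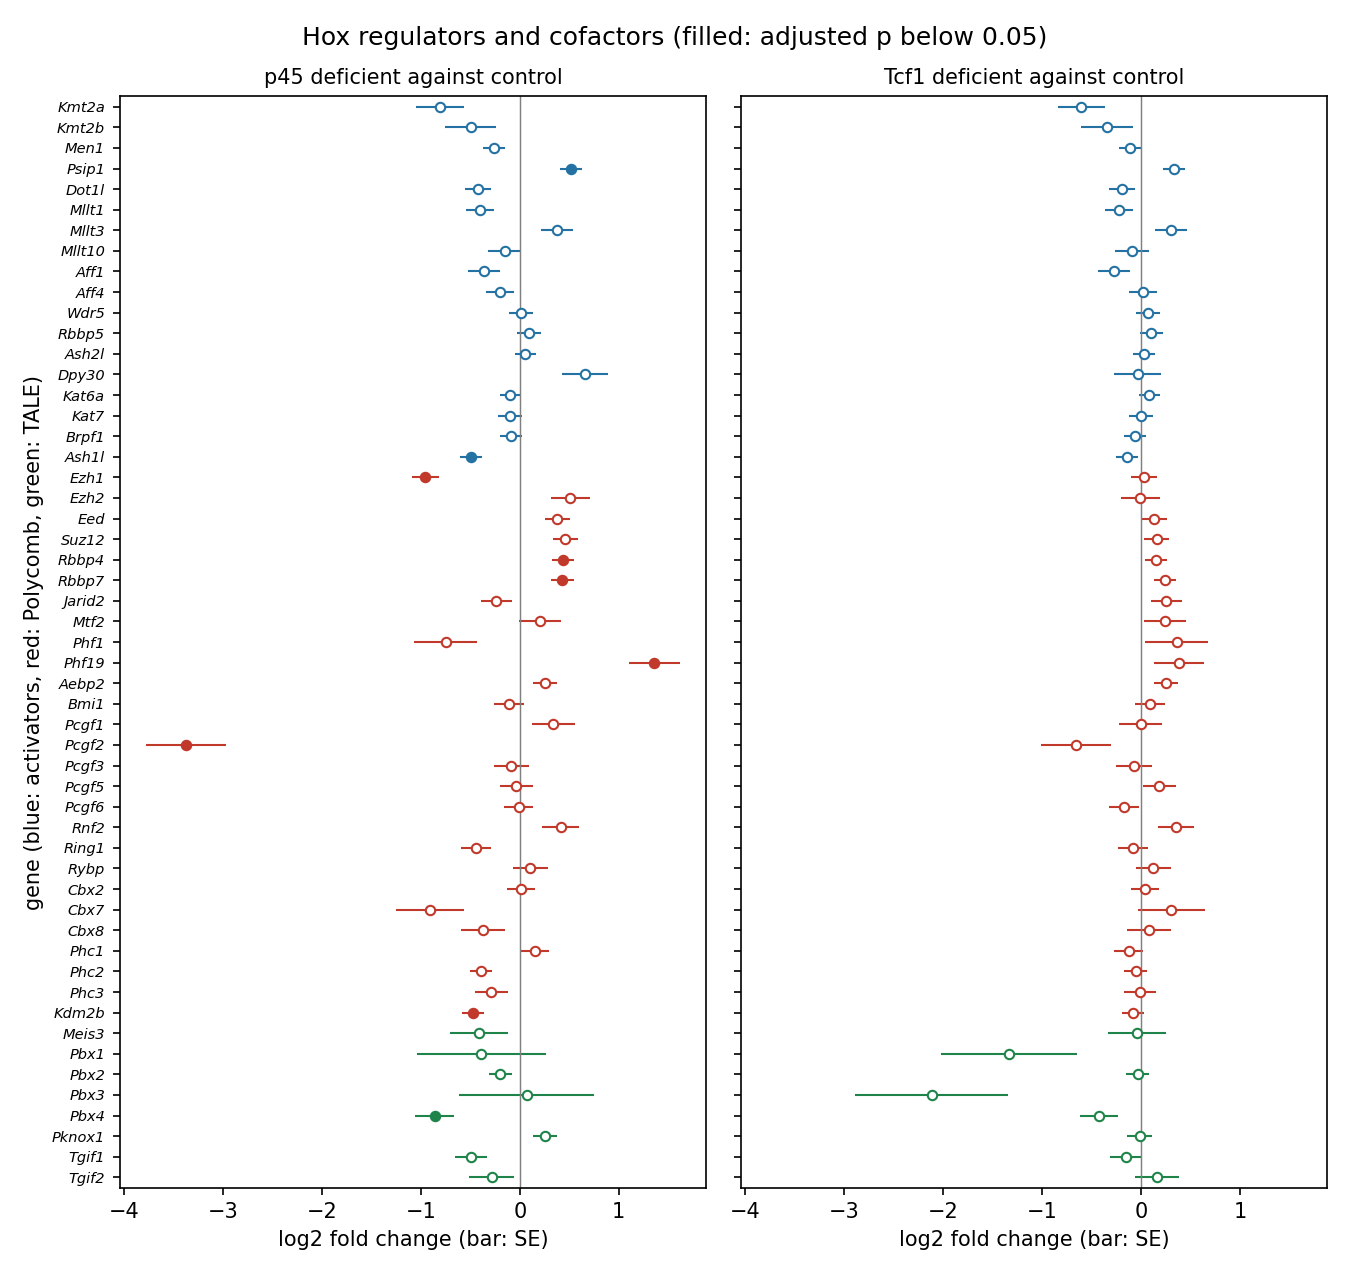
Log2 fold change of each tested activator (blue), Polycomb (red) and TALE (green) gene in p45-deficient (left) and Tcf1-deficient (right) cells against control, with bars for the SE and filled points for genes with an edgeR adjusted p below 0.05. In p45-deficient cells Pcgf2 lies farthest from 0 at -3.37, and no point is filled for Tcf1-deficient cells.

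Of 19 early-progenitor regulators, 17 were tested in p45-deficient cells, with 6 lower, 1 higher and 10 not passing, beside 7.55% lower and 8.47% higher among all tested genes. Their median log2 fold change was -1.57. Kit, the receptor for stem cell factor, fell from 54.1 ± 0.987 CPM to 6.10 ± 0.780 CPM (log2 fold change -3.15, SE 0.21; edgeR adjusted p = 0.000935), a call that held without any single library. In Tcf1-deficient cells Kit was at 46.5 ± 11.1 CPM, not called against control (-0.22; edgeR adjusted p = 0.78) and higher than in p45-deficient cells (2.93; adjusted p = 0.00203). Without Tcf1-deficient replicate 1 these values were 0.01 (edgeR adjusted p = 0.994) and 3.21 (adjusted p = 0.000107). Bcl11a fell by 6.21 on the log2 scale, Mef2c by 4.37, Cebpb by 3.11 and Nfe2 by 1.67 (edgeR adjusted p 0.00777 to 0.0155). Hhex, a homeobox gene of progenitors that is also a known target of Hoxa and Meis factors in leukaemia, had 17 and 18 counts in control. It fell to 1 and 0 without p45 (edgeR adjusted p = 0.0226) and stood at 22 and 44 in the Tcf1-deficient pair. The gene that rose was Lyl1 (1.74; edgeR adjusted p = 0.0345). Without either control or either p45-deficient library 2 to 4 genes were lower and 0 higher, and without either Tcf1-deficient library 7 or 8 were lower and 2 higher. Markers of earlier thymocytes (7 genes, Kit, Flt3 and Spi1 among them) summed to 298 and 347 CPM in control and to 218 and 235 CPM without p45. Over the genes their median log2 fold change without p45 was -1.57, with 5 of 7 at an unadjusted p under 0.05 and Kit called by edgeR. In the Tcf1-deficient pair they summed to 317 and 261 CPM, and Cd34 was at 0 in both Tcf1-deficient libraries. Later-thymocyte markers (7 genes) summed to 341.4 and 357.7 CPM in control and were higher without p45, at 508.5 and 480.1 CPM. Of these 7 genes 0 were called by edgeR without p45, with a median log2 fold change of 0.463. The part of such cells in the Hoxa levels was not tested.

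Of 17 known leukaemia targets of Hoxa and Meis factors, 14 were tested, and in p45-deficient cells 4 fell, 1 rose and 9 did not pass, beside 7.55% lower and 8.47% higher among all tested genes. Hhex and Eya1 fell to 1 count over the group, Cdk6, a cell cycle kinase, fell by 1.24 on the log2 scale (edgeR adjusted p = 0.00851) and Igf1r, a growth factor receptor, by 1.11 (adjusted p = 0.0255). Camk2d, a calcium-dependent kinase, rose by 1.09 (edgeR adjusted p = 0.00322). Without control replicate 1 or either p45-deficient library 0 genes were lower, without control replicate 2 there were 2, and without either Tcf1-deficient library 7; 1 was higher each time. Hhex and Cdk6 were higher and Camk2d lower in Tcf1-deficient than in p45-deficient cells (edgeR adjusted p 0.00837 to 0.04). These calls were lost without either p45-deficient library, and those of Hhex and Cdk6 also without either control library and with only these groups in the fit. The call of Cdk6 was lost with limma voom too. No gene of the list passed against control in Tcf1-deficient cells.

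The genes whose level followed the summed Hoxa counts most closely over the 6 libraries, by Pearson's r of log2 CPM among 9809 genes at 5 CPM or more, were Kat2a, Sppl2b, Tbc1d24, Trim32, Vps39 and Amigo1, with r from 0.992 to 0.995. Their r describes 3 genotypes more than 6 independent points, and 461 genes had r above 0.9. Amigo1, an adhesion protein gene, was at 13.5 and 13.2 CPM in control. It was at 2.87 and 3.54 CPM without p45 and at 5.36 and 8.24 CPM in the Tcf1-deficient pair.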

How the data were processed

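RNA of sorted DN3 thymocytes was extracted on Qiagen columns and sequenced by an Illumina protocol, per the labels' protocols. The submitters' processing notes name TopHat2, featureCounts 1.5.0-p3, DESeq2 3.4 and build mm9, without their role or order. The authors' values are raw read counts for each gene symbol, with no normalisation. Annotation and strandedness of the counting: not given in the sources used here.

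Members and gene lists were chosen with earlier results of these data known. Named genes are the members, cluster transcripts, flanking genes and TALE genes with counts, up to 4 genes with the smallest p per list and comparison, and the 6 genes most like the members. Further called genes were named after their values were seen. Some genes of the lists are not reported here and were left out of the lists' counts.

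The test was edgeR 4.0.16 (under R 4.3.3): filterByExpr (12939 genes), TMM scaling, a robust quasi-likelihood F test on all 6 libraries with 3 residual degrees of freedom, two-sided, Benjamini-Hochberg threshold 0.05. The filter asked for about 0.428 CPM in at least 2 libraries. DESeq2 1.42.0, limma 3.58.1 voom, other scalings, no filter, only the groups compared, a replicate block and leaving out each library were alternatives. On simulated p45-deficient against control data (12716 genes) 49.3% of genes changed 2-fold were called, with 21 false calls. The share was 80.6% at 4-fold and 98.5% at 16-fold. For Tcf1-deficient against control it was 77.6% at 4-fold and 92.4% at 16-fold, where the real test called no gene. The simulation changed 66 or 67 genes per fold and gave all groups the same spread. In the data, the log2 difference between replicates had an SD of 0.787 over genes in Tcf1-deficient libraries. It was 0.51 in control and 0.49 in p45-deficient libraries. The simulated rates therefore do not give the power of the Tcf1-deficient comparisons, nor the power for members near 0 counts. Folds against groups at 0 used a floor of 3 counts and leave out the counting error of the other group. Promoters are RefSeq, GRCm38.p6, matched by symbol. They are in another build than the counts, and the 50 bases after each start were left out.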

Additional observations from a re-analysis of the deposited data

How the results depend on the processing

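Single-library omissions moved the counts most. Genes called in p45-deficient against control numbered 2073, and 258 to 3923 without single libraries. The members called there numbered 4, and 1 to 6 without single libraries. For Tcf1-deficient against control the counts were 0 to 894 genes and 0 to 2 members, and for Tcf1-deficient against p45-deficient 105 to 3437 genes (1348 with all libraries) and 0 to 2 members. With only the groups compared in the fit, 3907 genes were called in p45-deficient against control and 488 in Tcf1-deficient against p45-deficient, the latter with 0 members. DESeq2 called 145 genes and 1 member in Tcf1-deficient against control, and 2432 genes and 2 members in Tcf1-deficient against p45-deficient. With no filter on low counts, 33 genes and 1 member were called in the first of these and 2 members in the second. limma voom called 0 members in the second. The causes were not tested.

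The replicate numbers did not pair the libraries (correlations of deviations -0.0141, -0.0504 and -0.0286). A replicate block left 1613 genes and 2 members, Hoxa5 and Hoxa7, called in p45-deficient against control. Scaling by library totals gave 721 genes higher and 1281 lower there, against 1096 and 977 with TMM, and moved the genes' median log2 change from 0.05 to -0.06. Upper-quartile scaling gave 820 and 1175. In Tcf1-deficient against p45-deficient, library totals gave 744 higher and 483 lower, against 654 and 694. For single genes, 556 values kept direction and side of the threshold, 128 lost the threshold, 17 gained it and 2 turned, both for Hoxa3 between the mutants, whose fitted value ran from -4.32 to 4.99 without single libraries (at these ends 1 group was at 0 counts) and was -0.13 without p45-deficient replicate 2. Hoxa9 was at 0 counts in both mutants once p45-deficient replicate 2 was left out, so its fitted difference of 0 has no direction and was not classed. Counts of 0 to 31 per mutant library limit what can be said of single members other than Hoxa7.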
